A study of Mus musculus with 36 samples.

Results

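A set of 10 genes of mitochondrial fatty acid oxidation was followed in bulk RNA sequencing of mouse tibia. They are *Fabp3*, *Cpt1b*, *Slc25a20*, *Cpt2*, *Acadvl*, *Acadl*, *Acadm*, *Hadha*, *Hadhb* and *Etfdh*. They were taken by symbol from the 56246 genes of the deposited table, and each of the 10 members was found. Of these, 9 passed the filter on low values, a mean of at least 0.5 scaled TPM, as did 15902 of the 56246 genes. *Cpt1b* did not pass and is given by its values.

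Long-chain fatty acids are burned in mitochondria, where each round of beta-oxidation shortens the acyl chain and releases acetyl-CoA and electrons. Fatty acids travel through the cytosol on binding proteins, are activated to acyl-CoA and cross the inner mitochondrial membrane as carnitine esters. Acyl-CoA dehydrogenases, the trifunctional protein and a thiolase then work in sequence, and electrons leave through the electron transfer flavoprotein to ubiquinone. The pathway is especially active in heart, slow and oxidative skeletal muscle, liver and brown fat. Osteoblasts and osteocytes also use fatty acids as fuel.

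Groups of 12 mice, each with 6 males and 6 females, were compared at 6 months of age. Wild-type mice were untreated. Mice of genotype LMNAG608G/G608G, called *LMNA* G/G, carried 2 copies of a human bacterial artificial chromosome with the progeria form of *LMNA* and a second human gene, *RAB25*, on the C57BL/6J background. They received saline or an adenine base editor (ABE) at P14, 14 days after birth, into the retro-orbital sinus, the editor split over a pair of AAV9 vectors. Saline-treated and ABE-treated mice thus shared the transgene, and wild-type mice had neither transgene nor injection. The editor reaches only some of the cells of a tissue. The tibiae held mostly cortical bone, since epiphyses and marrow were taken away. The study calls the mice littermates, but the labels give no litter, wild-type and *LMNA* G/G mice are numbered apart, and 3 *LMNA* G/G libraries (ABE-treated replicates 2 and 11, saline-treated replicate 9) have the letters WT in their titles although their other labels give the transgenic genotype. The comparison asks how tibial expression of these genes in treated and untreated *LMNA* G/G mice stands to that of wild-type mice.

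Values are scaled TPM, the deposited TPM (reads per gene length and library total) divided by the median ratio of a library's genes to their geometric means, and levels of genes are thus compared per length. Libraries held 48064068 to 116206662 reads on genes, and members other than *Cpt1b* and *Fabp3* had at least 789 reads in each library. ABE-treated replicate 1, a female, stood apart with a scaling factor of 0.219 where the other libraries of all groups had at least 0.610. Counts of members called in all mice are given without it as well. Values of ABE-treated mice in females alone, in single ratios, in lists and with a muscle covariate are not. The tissue was checked against its markers. The osteocyte genes *Dmp1* and *Sost* had means of 11.6 and 8.25 scaled TPM in wild-type mice, 76.3 and 123 after saline and 59.2 and 113 after ABE. Genes of skeletal muscle were high as well. *Acta1*, the actin of muscle fibres, had 311 ± 211 in wild-type mice, 826 ± 576 after saline and 1743 ± 897 after ABE (scaled TPM, SD, n = 12). Genes of blood and marrow cells passed the filter too. For erythroid, neutrophil, macrophage and B cell genes the median log2 fold changes were 0.13, 0.34, 0.0079 and -0.79 in saline-treated against wild-type mice. They were -0.83, -0.30, -0.47 and -0.67 in ABE-treated against wild-type mice. Between ABE-treated and saline-treated mice they were -1.05, -0.74, -0.57 and 0.12. In bulk RNA, fewer cells of a type and less RNA per cell cannot be told apart.

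Promoter windows of 250 bases before to 50 bases after the annotated start, from RefSeq on GRCm38.p6, matched 9 of the 10 members, all but *Cpt1b*. The windows below are those of *Fabp3*, which had the largest differences between groups, of *Hadhb*, which shares its start region with *Hadha*, and of *Acadvl*, 1 of 2 members with a nuclear receptor core site. Capitals mark the GC box GGGCGG or the core site AGGTCA on either strand, and all windows are written 5′ to 3′ on the strand of the gene. The *Fabp3* window holds neither.
Fabp3 promoter, chr4:130308488-130308787, plus strand: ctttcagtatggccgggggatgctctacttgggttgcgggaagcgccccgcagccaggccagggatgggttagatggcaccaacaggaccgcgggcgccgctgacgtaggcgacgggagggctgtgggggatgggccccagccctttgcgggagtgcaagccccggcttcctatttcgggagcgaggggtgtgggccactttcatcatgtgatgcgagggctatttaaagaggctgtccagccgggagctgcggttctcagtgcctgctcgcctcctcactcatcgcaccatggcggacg
Hadhb promoter, chr5:30155003-30155302, plus strand: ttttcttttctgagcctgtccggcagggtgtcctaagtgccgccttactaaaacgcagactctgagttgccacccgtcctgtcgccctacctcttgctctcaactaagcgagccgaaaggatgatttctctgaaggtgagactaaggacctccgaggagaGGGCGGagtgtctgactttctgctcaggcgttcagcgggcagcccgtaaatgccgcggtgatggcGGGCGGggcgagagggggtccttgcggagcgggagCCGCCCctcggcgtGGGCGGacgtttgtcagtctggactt
Acadvl promoter, chr11:70015379-70015678, minus strand: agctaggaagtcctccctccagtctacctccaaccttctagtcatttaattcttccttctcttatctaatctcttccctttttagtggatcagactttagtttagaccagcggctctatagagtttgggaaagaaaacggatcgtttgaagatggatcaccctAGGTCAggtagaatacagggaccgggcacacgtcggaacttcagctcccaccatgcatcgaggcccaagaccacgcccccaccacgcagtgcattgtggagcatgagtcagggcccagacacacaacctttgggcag

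The GC box GGGCGG was found in 6 of 9 member windows (*Acadl*, *Etfdh*, *Cpt2*, *Hadha*, *Hadhb* and *Slc25a20*), and in 35.7% of all 32851 promoter windows of this length. The core site AGGTCA was in 2 of 9 (*Acadm* and *Acadvl*) and in 16.3% of all windows. A direct repeat of AGGTCA spaced by 1 base, the element that PPAR and RXR receptors bind as a pair, was in 0 of 9 and in 0.0396% of all, and TNAAGGTCA, an element of oestrogen-related receptors that overlaps the core site, was in 0 of 9 and in 1.28%. The E-box CANNTG was in 5 of 9 against 72.3%, CCAAT in 1 of 9 against 37.4% (*Etfdh*), and TATAAA in 0 of 9 against 13.6%. Both strands were searched. The share of G and C in member windows was 50.7% to 70.3%, and the median of all promoters was 52.7%. *Hadha* and *Hadhb*, on opposite strands of chromosome 5, start 86 bp apart, and their windows share 228 bases. The GC box of the *Hadha* window is the same site as the first box of the *Hadhb* window, so that site was counted for both.

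*Fabp3* (ENSMUSG00000028773.8, chromosome 4 from 130308595 to 130315463, plus strand, here and below on GRCm38 in GENCODE vM21) encodes the fatty acid binding protein of heart and muscle, which carries fatty acids through the cytosol. Its level ranged from 0.933 to 16.8 (median 5.32) scaled TPM in wild-type mice, 1.61 to 25.3 (median 12.9) after saline and 5.48 to 80.5 (median 40.6) after ABE. The groups overlapped, but 10 of 12 ABE-treated mice lay above every wild-type mouse and 9 above every saline-treated mouse. Means were 7.43 ± 5.37, 15.4 ± 8.13 and 42.0 ± 22.9 scaled TPM (SD, n = 12). On the log2 scale it rose by 1.07 (SE 0.43, adjusted p = 0.0351) in saline-treated and 2.47 (SE 0.43, adjusted p = 5.9e-06) in ABE-treated relative to wild-type mice, and by 1.40 (SE 0.43, adjusted p = 0.00836) between ABE-treated and saline-treated mice (limma with Benjamini-Hochberg adjustment over 15902 genes, as for all adjusted p-values of single genes, and every value given with an SE is a difference on this log2 scale). *Fabp3* varied more within a group than the other members, with a coefficient of variation of 72.2% in wild-type. Of its exon bases, 19.6% lie opposite Gm10570, which starts 79 bp away and had means of at most 0.114 scaled TPM, or *Zcchc17*, which was named after its values were seen. *Zcchc17* had means of 1.16 in wild-type mice, 1.43 after saline and 1.60 after ABE (scaled TPM), above the lowest *Fabp3* value in wild-type mice.

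**Figure D1:**
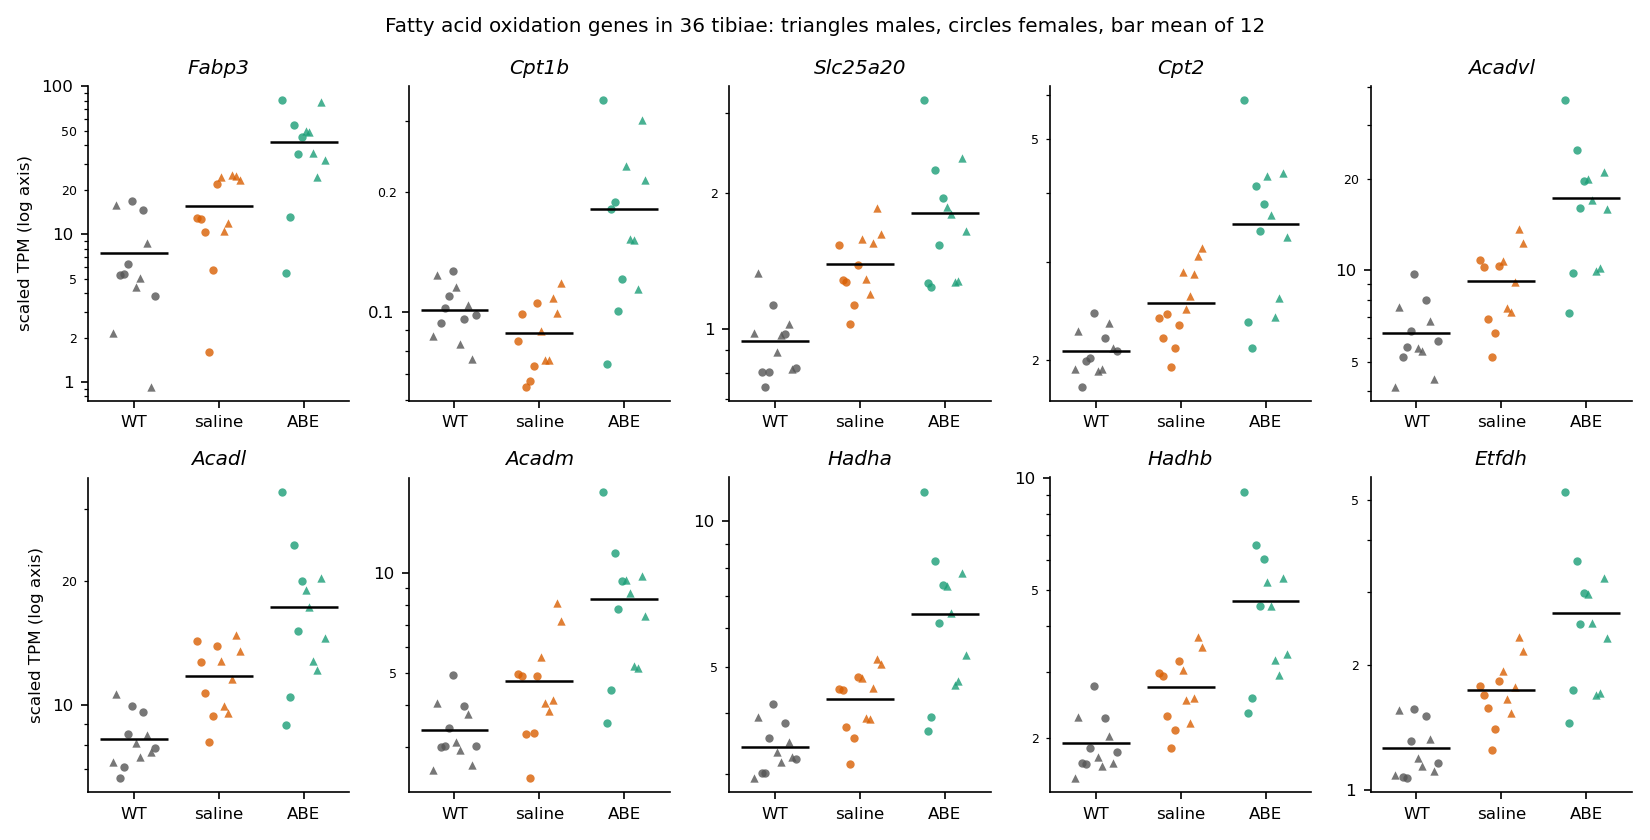
Level of each of the 10 members (scaled TPM, log axis) in the 36 tibiae, 1 point per mouse (triangles males, circles females), with the mean of each group of 12 as a bar. *Fabp3* reached a mean of 42.0 in ABE-treated mice against 7.43 in wild-type, and *Cpt1b* lay between 0.0650 and 0.338 over the 36 mice.

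The carnitine shuttle brings acyl groups into the matrix. *Cpt1b* (ENSMUSG00000078937.8, chromosome 15 from 89416405 to 89425863, minus strand) encodes the muscle carnitine palmitoyltransferase of the outer membrane, the controlled entry step. Its level was 0.0763 to 0.127 (median 0.10) scaled TPM in wild-type mice, 0.0650 to 0.118 (median 0.0870) after saline and 0.0741 to 0.338 (median 0.166) after ABE, from 49 to 292 reads. In ABE-treated mice 8 of 12 lay above every wild-type mouse, and the saline-treated range began below that of wild-type. In a fit without the filter the log2 fold change was -0.032 (SE 0.041, adjusted p = 0.613) in saline-treated and 0.17 (SE 0.041, adjusted p = 8.0e-04) in ABE-treated against wild-type, and 0.20 (SE 0.041, adjusted p = 0.00117) between the treatments (limma), on a scale where the added 0.5 is larger than the levels. Its values are uncertain, because 81.4% of its exon bases lie in exons of Gm44502 on the same strand in GENCODE vM21, a different release from that on which the authors counted reads, and Gm44502 was listed at 0 in all 36 libraries. Whether reads on the shared bases were left out of both genes was not tested.

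*Slc25a20* (ENSMUSG00000032602.6, chromosome 9 from 108662088 to 108684641, plus strand), the carrier that exchanges acylcarnitine for carnitine across the inner membrane, had 0.745 to 1.33 (median 0.930) scaled TPM in wild-type mice, 1.03 to 1.86 (median 1.34) after saline and 1.24 to 3.20 (median 1.72) after ABE. Each of the saline-treated and ABE-treated mice lay above the wild-type median. The gene rose by 0.39 (SE 0.10, adjusted p = 0.00109) in saline-treated and by 0.65 (SE 0.10, adjusted p = 6.5e-07) in ABE-treated relative to wild-type mice on the log2 scale. Between the treatments it rose by 0.26 (SE 0.10, adjusted p = 0.0298), and on deposited TPM this value turned to -0.030. *Cpt2* (ENSMUSG00000028607.16, chromosome 4 from 107903981 to 107923610, minus strand), which turns acylcarnitine back into acyl-CoA on the matrix side, had 1.79 to 2.44 (median 2.05), 1.94 to 3.18 (median 2.45) and 2.10 to 5.87 (median 3.53) scaled TPM in the same order of groups. It rose in ABE-treated mice, by 0.60 (SE 0.10, adjusted p = 4.9e-06) against wild-type and 0.37 (SE 0.10, adjusted p = 0.00441) against saline-treated mice. Between saline-treated and wild-type mice its log2 fold change of 0.23 (SE 0.10, adjusted p = 0.0597) did not pass the threshold.

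The acyl-CoA dehydrogenases open each round of oxidation and differ in the chain length they prefer. *Acadvl* (ENSMUSG00000018574.14, chromosome 11 from 70010183 to 70015411, minus strand), for very long chains at the inner membrane, had 4.15 to 9.72 (median 5.73) scaled TPM in wild-type mice, 5.19 to 13.7 (median 9.73) after saline and 7.23 to 36.3 (median 16.5) after ABE. Among the ABE-treated mice 11 of 12 were above the highest wild-type mouse. Its log2 fold change was 0.52 (SE 0.19, adjusted p = 0.0259) in saline-treated and 1.31 (SE 0.19, adjusted p = 5.4e-07) in ABE-treated against wild-type, and 0.80 (SE 0.19, adjusted p = 0.0021) between the treatments. Of its exon bases, 42.9% are opposite *Dvl2*, whose group means lay between 0.916 and 1.04 scaled TPM, and *Dlg4*, which starts 1531 bp away, had means of 0.366 to 0.502. Both neighbours were far below it. *Dvl2* was named after its values were seen, as was Gm44502.

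*Acadl* (ENSMUSG00000026003.5, chromosome 1 from 66830839 to 66863277, minus strand), the long-chain enzyme, had 6.65 to 10.7 (median 7.98), 8.15 to 14.8 (median 12.1) and 8.93 to 32.9 (median 16.2) scaled TPM in wild-type mice, after saline and after ABE. Most saline-treated mice, 8 of 12, were already above every wild-type mouse. It rose by 0.48 (SE 0.15, adjusted p = 0.00679) in saline-treated and 0.95 (SE 0.15, adjusted p = 9.2e-07) in ABE-treated mice against wild-type, and by 0.47 (SE 0.15, adjusted p = 0.00872) between them. *Acadm* (ENSMUSG00000062908.12, chromosome 3 from 153922357 to 153944632, minus strand), the medium-chain enzyme, had 2.57 to 4.93 (median 3.07), 2.42 to 8.12 (median 4.53) and 3.54 to 17.5 (median 8.26) scaled TPM in the same order. It rose in ABE-treated mice, by 1.09 (SE 0.18, adjusted p = 3.8e-06) against wild-type and 0.70 (SE 0.18, adjusted p = 0.00313) against saline-treated mice. Its difference between saline-treated and wild-type mice, 0.39 (SE 0.18, adjusted p = 0.0731), did not pass, and only 4 of 12 saline-treated mice were above the wild-type range.

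*Hadha* (ENSMUSG00000025745.12, chromosome 5 from 30118304 to 30155162, minus strand) and *Hadhb* (ENSMUSG00000059447.13, chromosome 5 from 30155248 to 30184593, plus strand) encode the alpha and beta subunits of the trifunctional protein, which carries out the later steps for long chains. *Hadha* had 2.94 to 4.18 (median 3.29) scaled TPM in wild-type mice, 3.15 to 5.18 (median 4.48) after saline and 3.68 to 11.5 (median 6.30) after ABE. *Hadhb* had 1.56 to 2.76 (median 1.80), 1.88 to 3.73 (median 2.75) and 2.34 to 9.16 (median 4.53). In both genes 10 of 12 ABE-treated mice were above every wild-type mouse. *Hadha* rose by 0.29 (SE 0.12, adjusted p = 0.0443) and 0.77 (SE 0.12, adjusted p = 1.4e-06) in saline-treated and ABE-treated mice against wild-type, and *Hadhb* by 0.41 (SE 0.15, adjusted p = 0.0196) and 1.0 (SE 0.15, adjusted p = 4.3e-07). The rise of *Hadha* in saline-treated mice was near the threshold, with an adjusted p of 0.0504 with a pseudocount of 1 and 0.0699 with no filter (0.00128 to 0.889 over its alternatives), and it was lost without any 1 of 15 libraries. Between the treatments the log2 differences were 0.48 (SE 0.12, adjusted p = 0.0025) and 0.60 (SE 0.15, adjusted p = 0.00219).

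*Etfdh* (ENSMUSG00000027809.14, chromosome 3 from 79603788 to 79629500, minus strand), the oxidoreductase that passes electrons from the electron transfer flavoprotein to ubiquinone, had 1.07 to 1.56 (median 1.18) scaled TPM in wild-type mice, 1.24 to 2.34 (median 1.73) after saline and 1.45 to 5.22 (median 2.51) after ABE. All but 1 of the ABE-treated mice and 9 of 12 saline-treated mice were above the wild-type range. It rose by 0.35 (SE 0.12, adjusted p = 0.0162) in saline-treated and 0.79 (SE 0.12, adjusted p = 9.0e-07) in ABE-treated relative to wild-type mice, and by 0.44 (SE 0.12, adjusted p = 0.00416) between the treatments. *Etfa*, a subunit of the flavoprotein that feeds it, had 6.06 ± 0.874 in wild-type mice, 8.18 ± 1.5 after saline and 11.5 ± 4.33 after ABE (scaled TPM, SD, n = 12) and rose in all 3 comparisons. *Etfb*, the other subunit, rose by 0.18 (SE 0.071, adjusted p = 0.0309) in saline-treated and 0.25 (SE 0.071, adjusted p = 0.00243) in ABE-treated relative to wild-type mice, the latter turning to -0.16 on deposited TPM, and between the treatments its value of 0.066 (SE 0.071, adjusted p = 0.459) did not pass. 4930579G24Rik, which starts 421 bp from *Etfdh* on the other strand, had means of 1.10 scaled TPM in wild-type mice, 1.01 after saline and 0.710 after ABE.

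Ordered by mean level per length, wild-type mice had *Acadl*, *Fabp3*, *Acadvl*, *Hadha*, *Acadm*, *Cpt2*, *Hadhb*, *Etfdh*, *Slc25a20*, *Cpt1b*. In ABE-treated mice the order was *Fabp3*, *Acadl*, *Acadvl*, *Acadm*, *Hadha*, *Hadhb*, *Cpt2*, *Etfdh*, *Slc25a20*, *Cpt1b*. *Fabp3* thus came after *Acadl* in wild-type and before it in ABE-treated mice. In wild-type mice their means of 7.43 ± 5.37 and 8.27 ± 1.23 scaled TPM (SD, n = 12) did not differ beyond their spread. Neither did neighbours such as *Acadl* (17.3 ± 6.68 scaled TPM, SD, n = 12) and *Acadvl* (17.3 ± 8.03) in ABE-treated mice. *Acadm* and *Hadha* (3.38 ± 0.692 and 3.41 ± 0.396) overlapped in the same way in wild-type. The highest ABE-treated library was replicate 1, a female, for 10 of 10 members, and it also had the highest mean level of the skeletal muscle genes described below. Without it, the 9 members tested still rose in ABE-treated mice against wild-type, with a median log2 fold change of 0.86 in place of 0.95, and 8 of 9 rose against saline-treated mice, all but *Slc25a20* (adjusted p = 0.0676, and from 0.00731 to 0.839 over its alternatives).

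Counted over the 9 members tested, 7 rose and 0 fell in saline-treated relative to wild-type mice, where 27.7% of all genes tested were called higher. *Cpt2* and *Acadm* did not pass, and at an unadjusted p of 0.05 all 9 passed. Both passed when these 2 groups were fitted alone (adjusted p = 0.00106 and 0.0218) and with libraries weighted by their fit (array weights, adjusted p = 0.00281 and 0.00485), and over all alternatives their adjusted p ranged from 0.00106 to 0.832 and from 0.00485 to 0.827. The median log2 fold change of the members was 0.39 beside 0.019 over all genes. In ABE-treated relative to wild-type mice 9 of 9 rose, against 35.0% of all genes, with a median of 0.95 beside -0.018. In ABE-treated against saline-treated mice 9 of 9 rose, against 23.2% of all genes, with a median of 0.48 beside -0.016. The comparisons share samples, and are not independent of each other. Every member overlapped between the groups in every comparison, where 3.06%, 4.14% and 0.0189% of all genes were higher without overlap, in the order given.

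The counts depended on the scaling of libraries. On deposited TPM the median log2 fold change of all genes shifted to -0.13, -0.42 and -0.27 for saline-treated against wild-type, ABE-treated against wild-type and ABE-treated against saline-treated mice, and the members called were 0, 6 and 1 of 9 (2, 7 and 2 at an unadjusted p of 0.05), where 6.42%, 9.11% and 3.35% of all genes were higher. The members' own median log2 fold changes on deposited TPM were 0.25, 0.39 and 0.13, still above those of all genes. The share of calls that were higher over all genes fell to 21.7%, 13.4% and 7.58% on deposited TPM, from 53.0%, 49.8% and 48.0%. Without saline-treated replicate 11, 4 of 9 members rose in saline-treated relative to wild-type mice. With limma-voom on recovered reads, 7, 9 and 9 of 9 members rose.

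**Figure D2:**
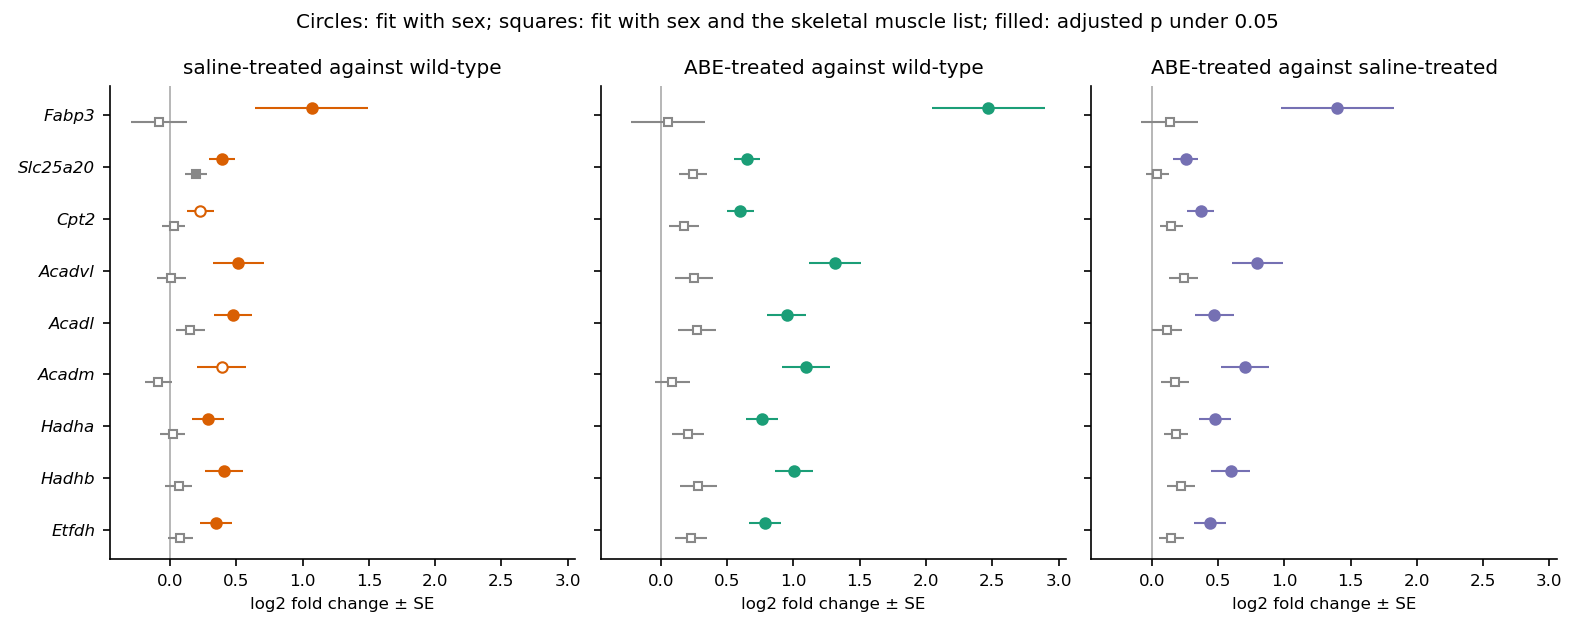
Log2 fold change with its SE for the 9 members tested (*Cpt1b* did not pass the filter) in each comparison of 12 against 12 mice, from the fit with sex as a covariate (circles) and from the fit that also holds the mean log2 of 16 skeletal muscle genes (squares), filled where the adjusted p is under 0.05. Circles were filled for 7, 9 and 9 members, and squares for 1, 0 and 0.

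The sexes were then looked at apart, 6 against 6. In males 9 of 9 members rose in saline-treated relative to wild-type mice (28.6% of all genes), and in females 0 did (10.6% of all genes), with 1 at an unadjusted p of 0.05. On the log2 scale *Fabp3* had a difference of 1.95 (SE 0.48) in males and 0.19 (SE 0.65) in females, and *Acadvl* of 0.78 (SE 0.21) and 0.25 (SE 0.32) (limma). These sexes were not shown to differ. The interaction of group and sex called 0 of 9 members in each of the 3 comparisons, with 1, 0 and 0 at an unadjusted p of 0.05 (*Fabp3*, a difference of 1.77 with SE 0.82, p = 0.0391 and adjusted p = 0.197, limma). Over all genes it called 1.55%, 3.81% and 0.0566%. Limma-voom called 0 members as well.

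Against wild-type, 9 of 9 members rose in ABE-treated males (31.5% of all genes) and 9 of 9 in females (29.0%). Between the treatments 1 of 9 rose in males (9.99% of all genes), *Hadha*, by 0.35 (SE 0.12). In females 6 of 9 rose (16.1%), among them *Acadm* by 0.96 (SE 0.30). The females include ABE-treated replicate 1, and their values are not given without it. The summed level of 16 skeletal muscle genes was 117 to 785 (median 465) in wild-type males and 534 to 1757 (median 661) scaled TPM in wild-type females, and 731 to 4261 (median 1707) in saline-treated males and 195 to 2202 (median 1219.9) in saline-treated females. In ABE-treated mice it was 2189 to 4778 (median 3489) in males and 664 to 8222 (median 4302) in females. Its part in these values was not tested within the sexes.

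**Figure D3:**
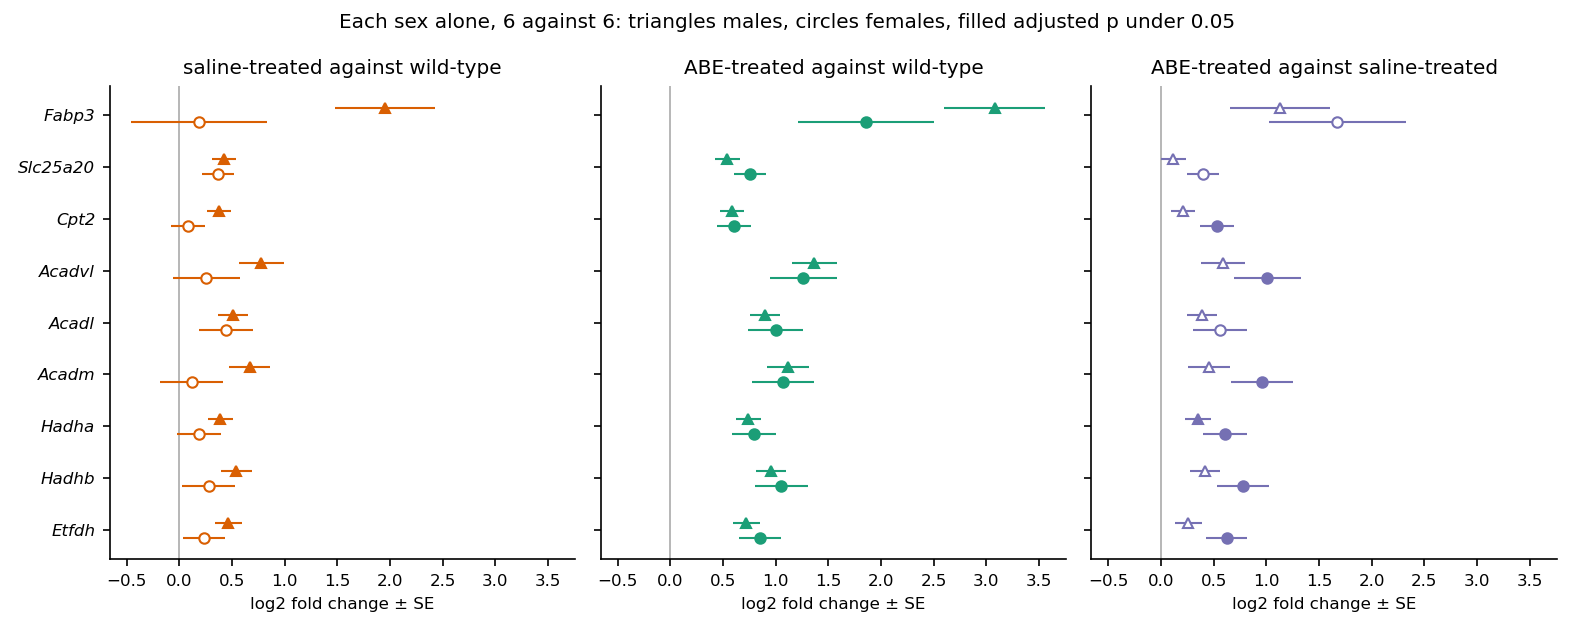
Log2 fold change with its SE for the 9 members tested, from males alone (triangles) and females alone (circles), 6 against 6 mice in each comparison, filled where the adjusted p is under 0.05. In saline-treated against wild-type mice 9 triangles and 0 circles are filled, while the interaction test called 0 members.

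Skeletal muscle genes moved with the members. Of 16 skeletal muscle genes, 12 rose in saline-treated against wild-type, 16 in ABE-treated against wild-type and 16 in ABE-treated against saline-treated mice, with median log2 fold changes of 1.16, 2.48 and 1.32. Their summed level was 117 to 1757 (median 585) scaled TPM in wild-type mice, 195 to 4261 (median 1288) after saline and 664 to 8222 (median 3758) after ABE, and the lowest group mean of any of the 16 was 0.766. Of 12 genes of fast fibres 10, 12 and 9 rose in the same order. Of the 9 genes of slow fibres that were tested 1, 9 and 9 rose, and the 1 was *Mybpc1*, which fast fibres also express. The interaction of group and sex was called for 1, 3 and 0 of these 9 slow fibre genes (1.55%, 3.81% and 0.0566% of all genes). On deposited TPM 7, 16 and 7 of the 16 skeletal muscle genes, 7, 12 and 3 of the fast fibre genes and 1, 6 and 7 of the slow fibre genes rose. *Tnnc1*, the troponin C of slow fibres, had 2.72 ± 2.97 in wild-type mice, 1.16 ± 0.915 after saline and 9.86 ± 10.8 after ABE (scaled TPM, SD, n = 12). Its mean was lowest in saline-treated mice, as was that of *Cpt1b*, while the means of the other 9 members were lowest in wild-type mice. Neither fall against wild-type mice passed. Of the 9 slow fibre genes tested, *Tnnc1* among them, 0 were called lower, and *Cpt1b* had an adjusted p of 0.613 (limma without the filter). Its Pearson r with the mean log2 of the slow fibre genes was 0.39 in wild-type mice, 0.53 after saline and 0.24 after ABE, and none passed.

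Within each group of 12, the level of each member was set against the mean log2 of the 16 skeletal muscle genes. Of 30 relations, 27 passed at an adjusted p of 0.05 by Pearson's r and 27 by Spearman's rho, with 7 of 10 in wild-type mice, 10 of 10 after saline and 10 of 10 after ABE by Pearson's r (permutation tests, Benjamini-Hochberg over 30). Every r was above 0, from 0.35 to 0.96. *Acadm* in saline-treated mice had Pearson r = 0.96 (permutation p = 1.0e-05, adjusted p = 5.0e-05) and Spearman rho = 0.95 (permutation p = 2.0e-05), where 1e-05 is the smallest p the permutations can give. *Slc25a20* in wild-type mice had the lowest, Pearson r = 0.35 (permutation p = 0.263, adjusted p = 0.263) and Spearman rho = 0.36 (permutation p = 0.255).

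The 2 libraries farthest from the median of the muscle genes were then left out. The range of r became 0.20 to 0.96, and 0.36 to 0.96 with *Cpt1b* set aside. *Cpt1b* in ABE-treated mice went from 0.64 to 0.20 and *Cpt2* in saline-treated mice from 0.67 to 0.36, so that these relations rested on those libraries. *Acadvl* in ABE-treated mice stayed at 0.94 from 0.94. In wild-type mice r rose for *Cpt2* from 0.49 to 0.76, for *Hadhb* from 0.78 to 0.91 and for *Slc25a20* from 0.35 to 0.54. There it fell for *Fabp3* from 0.91 to 0.84 and for *Cpt1b* from 0.73 to 0.56. The slopes differed between members. A log2 unit of muscle genes went with 1.0, 0.81 and 1.15 log2 units of *Fabp3* in wild-type mice, after saline and after ABE, and with 0.30, 0.35 and 0.70 of *Acadvl*. For *Hadha* the slopes were 0.10, 0.17 and 0.48. Differences between slopes were not tested. Points of a group share the depth and scaling of their libraries.

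**Figure D4:**
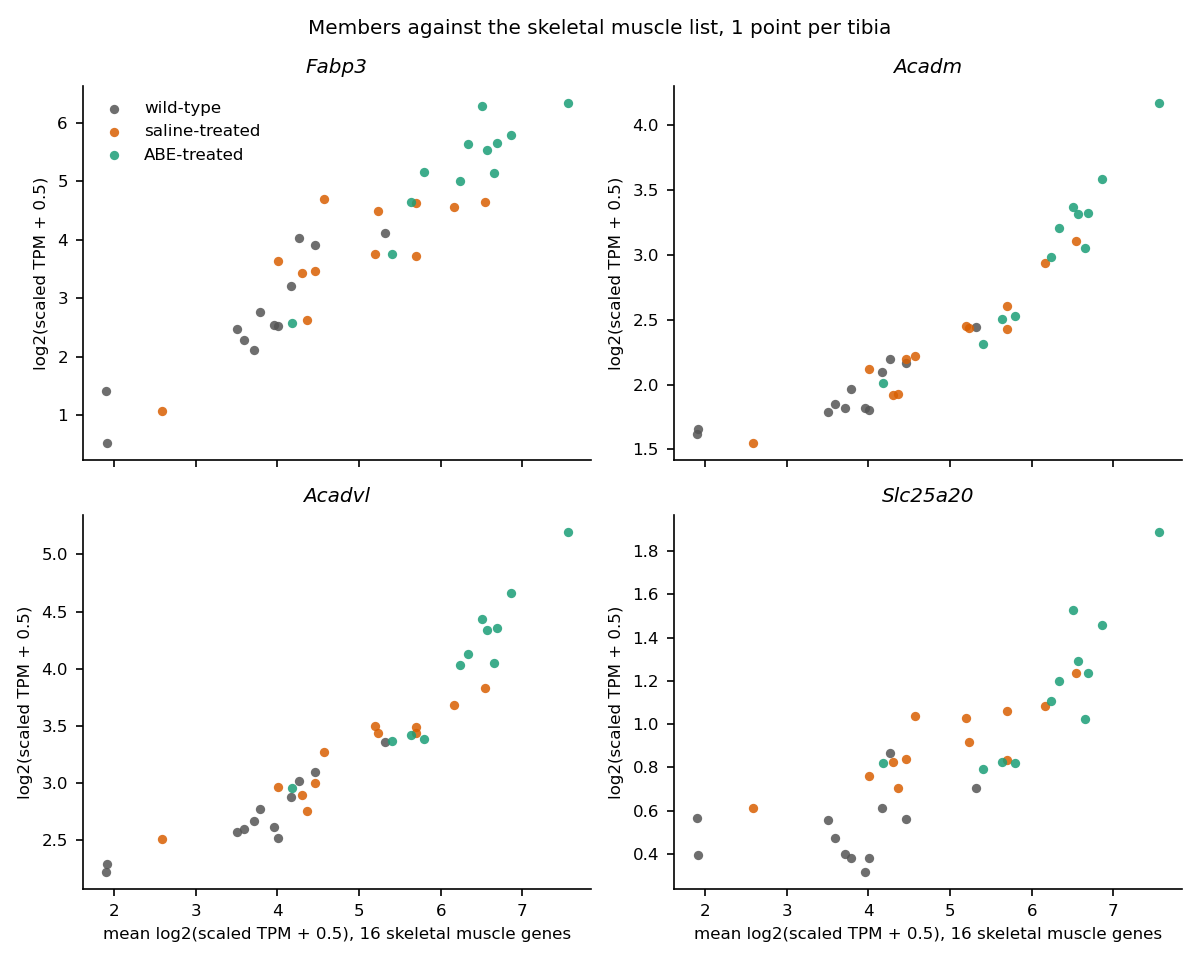
Level of *Fabp3*, *Acadm*, *Acadvl* and *Slc25a20*, log2(scaled TPM + 0.5), against the mean log2 of 16 skeletal muscle genes, 1 point per mouse, coloured by group. Within ABE-treated mice Pearson's r was 0.93, 0.95, 0.94 and 0.81, and within wild-type mice 0.91, 0.86, 0.90 and 0.35.

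With the mean log2 of the 16 muscle genes as a further covariate, 1 of 9 members passed in saline-treated relative to wild-type mice, where 24.0% of all genes were called higher. This was *Slc25a20*, at 0.20 (SE 0.083, adjusted p = 0.0487, limma), close to the threshold. Its adjusted p was 1.5e-05 to 0.102 over all alternatives to the main fit, most of which hold no muscle genes. That range is thus not one of the fit with muscle genes. In ABE-treated relative to wild-type mice 0 of 9 passed (14.9% of all genes higher), with 2 at an unadjusted p of 0.05, and in ABE-treated against saline-treated mice 0 of 9 (2.92%), with 2 (limma). All 9 values were above 0 in the latter comparisons, with medians of 0.22 and 0.15 beside 0.028 and 0.0017 over all genes. *Fabp3* went from 2.47 to 0.053 (SE 0.28, adjusted p = 0.907) in ABE-treated relative to wild-type mice, and *Hadhb* from 1.0 to 0.28 (SE 0.14, adjusted p = 0.117). Over all alternatives to the main fit, most without muscle genes, their adjusted p-values were 1.1e-07 to 0.907 and 2.8e-10 to 0.117. This fit takes 1 slope per gene for all groups. With the 12 fast fibre genes in place of the 16, a covariate chosen after seeing the data, 1, 2 and 0 of 9 members passed (1, 6 and 5 at an unadjusted p of 0.05), where 23.8%, 18.0% and 6.92% of all genes were higher.

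Ratios within a library compare members with each other and with related genes. A total of 15 differences, 5 ratios in 3 comparisons, were tested, and 11 passed (two-sided permutation of 12 and 12 libraries, Benjamini-Hochberg adjustment over the 15). The 11 include ratios with *Cpt1b*, whose uncertain level lay below the added 0.5. With 0.5 added these ratios follow mostly the other gene, and their values with no pseudocount are given below. The log2 ratio of *Hadha* to *Hadhb* was 0.69 ± 0.070 in wild-type mice, 0.57 ± 0.088 after saline and 0.45 ± 0.11 after ABE (SD, n = 12). It differed by -0.12 (adjusted p = 0.00298) in saline-treated and -0.24 (adjusted p = 3.0e-04) in ABE-treated relative to wild-type mice, and by -0.12 (adjusted p = 0.0114) between the treatments. The subunits rose together, with *Hadhb* ahead in each comparison. The ratio of *Acadvl* to *Acadl* was -0.41 ± 0.20, -0.37 ± 0.16 and -0.044 ± 0.17 in the same order. It was higher in ABE-treated mice, by 0.36 (adjusted p = 5.6e-04) against wild-type and 0.32 (adjusted p = 5.6e-04) against saline-treated mice, and between saline-treated and wild-type mice the difference was 0.041 (adjusted p = 0.588).

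That last value joins opposite values of the sexes. In males the log2 ratio of *Acadvl* to *Acadl* was -0.53 ± 0.18 in wild-type mice and -0.26 ± 0.12 after saline, and in females it was -0.29 ± 0.14 and -0.47 ± 0.13 (SD, n = 6). Saline-treated against wild-type, it was higher in males by 0.27 (adjusted p = 0.018), and in females the difference of -0.19 (adjusted p = 0.0599) did not pass (exact permutation tests, 15 differences in each sex). The sexes differed by 0.46, male minus female (exact permutation of group labels within each sex, p = 5.6e-04, adjusted p = 0.00833 over 15). It was the 1 of 15 such sex differences of ratios that passed, and also the 1 at an unadjusted p of 0.05. Without any 1 library it was 0.41 to 0.51 (adjusted p = 0.00221 to 0.0199, exact permutation). The test was added after the sexes' values had been seen, and the part of the skeletal muscle levels of each sex, given above, was not tested.

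*Fabp4* encodes the binding protein of fat cells, macrophages and capillaries, and had 4.67 ± 1.54 in wild-type mice, 6.95 ± 2.06 after saline and 4.91 ± 0.778 after ABE (scaled TPM, SD, n = 12). The log2 ratio of *Fabp3* to *Fabp4* was higher in ABE-treated mice, by 2.36 (adjusted p = 3.7e-04) against wild-type and 1.82 (adjusted p = 5.6e-04) against saline-treated mice. Between saline-treated and wild-type mice it differed by 0.54 (adjusted p = 0.213). *Cpt1a*, the liver form of the entry enzyme that most other tissues use, had 2.76 ± 0.657 in wild-type mice, 3.20 ± 0.838 after saline and 2.02 ± 0.833 after ABE. It fell in ABE-treated mice, with log2 values of -0.41 (SE 0.13, adjusted p = 0.00443) against wild-type and -0.59 (SE 0.13, adjusted p = 9.4e-04) against saline-treated mice. The ratio of *Cpt1b* to *Cpt1a* rose by 0.58 (adjusted p = 0.00475) and 0.79 (adjusted p = 5.6e-04) in these comparisons, and by 1.24 (adjusted p = 0.00137) and 1.65 (adjusted p = 3.4e-04) with no pseudocount, where the low level of *Cpt1b* weighs in full. The ratio of *Cpt2* to *Cpt1b* was higher in saline-treated than in wild-type mice, by 0.26 (adjusted p = 5.6e-04) with 0.5 added and 0.48 (adjusted p = 3.4e-04) with no pseudocount. In the other comparisons its direction depended on the pseudocount. In ABE-treated relative to wild-type mice its log2 difference was 0.43 (adjusted p = 5.6e-04) with 0.5 added and -0.015 (adjusted p = 0.923) with none, and against saline-treated mice 0.17 (adjusted p = 0.124) and -0.50 (adjusted p = 0.00753). In females alone 2 of the 15 ratio differences passed, and in males alone 10 (exact permutation tests, 6 against 6). Most of the others in females lay just past the threshold, at an adjusted p of 0.0599. The log2 ratio of *Fabp3* to *Fabp4* between the treatments, for example, differed by 1.95 in females (adjusted p = 0.0599) and 1.69 in males (adjusted p = 0.00649). These counts thus show no difference between the sexes, which passed its own test for 1 of 15 ratio differences, as given above.

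Other genes of the pathway were counted in the order saline-treated against wild-type, ABE-treated against wild-type, and ABE-treated against saline-treated mice. In this order 27.7%, 35.0% and 23.2% of all genes were called higher, and about as many lower. On deposited TPM 6.42%, 9.11% and 3.35% of all genes were called higher, and most calls over all genes were falls. Falls of a list on that scale are therefore not read as results about its genes. Of 18 other mitochondrial beta-oxidation enzymes 12, 17 and 14 rose and 0 fell in any comparison, with medians of 0.33, 0.64 and 0.32 on the log2 scale, and on deposited TPM 2, 6 and 0 rose and 0, 2 and 1 fell. *Acaa2*, the matrix thiolase, had 7.14 ± 1.39 in wild-type mice, 11.4 ± 1.87 after saline and 17.3 ± 7.12 after ABE (scaled TPM, SD, n = 12). *Acat1*, which acts on short ketoacyl groups, rose by 0.81 (SE 0.13, adjusted p = 1.3e-06) in ABE-treated relative to wild-type mice, and the thioesterase *Acot13* by 1.39 (SE 0.19, adjusted p = 1.8e-07). Of 4 other carnitine enzymes 1, 3 and 2 rose, and on deposited TPM 0, 1 and 0 rose and 0, 2 and 1 fell. The interaction of group and sex was called for 2 of these 4 in ABE-treated relative to wild-type mice (3.81% of all genes). *Crat*, which makes acetylcarnitine, had 3.96 ± 0.661 in wild-type mice, 6.29 ± 2.10 after saline and 11.2 ± 4.85 after ABE and rose in all 3 comparisons, opposite to *Cpt1a* in ABE-treated mice. *Crot*, the peroxisomal octanoyltransferase, and the brain form *Cpt1c* rose in ABE-treated relative to wild-type mice, by 0.093 (SE 0.033, adjusted p = 0.0129) and 0.41 (SE 0.082, adjusted p = 4.6e-05), though *Crot* turned to -0.32 on deposited TPM.

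Genes of uptake and activation did not share one direction. Of 13 tested 6, 9 and 2 rose and 1, 2 and 5 fell, with medians of 0.23, 0.21 and 0.086. On deposited TPM, where most calls over all genes were falls, 1, 0 and 0 rose and 1, 5 and 6 fell, with medians of 0.077, -0.21 and -0.26. The lipase *Pnpla2* and the fatty acid translocase *Cd36* rose in saline-treated relative to wild-type mice by 0.47 (SE 0.16, adjusted p = 0.017) and 0.45 (SE 0.13, adjusted p = 0.00454), and had 0.37 (SE 0.16, adjusted p = 0.0611) and 0.19 (SE 0.13, adjusted p = 0.229) between the treatments. *Fabp4* rose in saline-treated relative to wild-type mice by 0.53 (SE 0.14, adjusted p = 0.00195) and fell between the treatments by 0.42 (SE 0.14, adjusted p = 0.014). The synthetase *Acsl1* rose by 0.19 (SE 0.080, adjusted p = 0.0317) in ABE-treated relative to wild-type mice, and had -0.33 on deposited TPM. Of 10 peroxisomal genes tested 3, 5 and 4 rose and 2, 2 and 0 fell, with medians of 0.021, 0.10 and 0.076. On deposited TPM, where most calls over all genes were falls, 0 rose and 2, 6 and 2 fell, with medians of -0.11, -0.28 and -0.20. The interaction of group and sex was called for 2 of these 10 in ABE-treated relative to wild-type mice (3.81% of all genes). *Scp2*, a sterol carrier with a thiolase form, rose by 0.38 (SE 0.068, adjusted p = 9.4e-06) and *Hsd17b4* by 0.44 (SE 0.072, adjusted p = 2.7e-06) in ABE-treated relative to wild-type mice, and these turned to -0.14 and -0.069 on deposited TPM.

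Of 15 regulators tested 7, 11 and 9 rose and 0, 2 and 3 fell, with medians of 0.35, 0.79 and 0.55. On deposited TPM 3, 7 and 5 rose and 0, 4 and 3 fell, with medians of 0.18, 0.27 and 0.24. *Pdk4*, a kinase that turns pyruvate away from the citric acid cycle, had 2.85 ± 2.91 in wild-type mice, 11.7 ± 7.75 after saline and 19.3 ± 17.1 after ABE (scaled TPM, SD, n = 12), and rose by 1.80 (SE 0.36, adjusted p = 1.2e-04) in saline-treated and 2.47 (SE 0.36, adjusted p = 5.2e-07) in ABE-treated relative to wild-type mice. *Acacb*, which makes the malonyl-CoA that restrains the carnitine entry step, rose by 1.96 (SE 0.28, adjusted p = 3.0e-07) in ABE-treated relative to wild-type mice, and the receptor partner *Rxra* by 0.79 (SE 0.13, adjusted p = 2.5e-06). The mitochondrial carrier *Ucp2* fell by 0.86 (SE 0.17, adjusted p = 3.6e-05) in the same comparison. Genes of other parts of energy metabolism rose as well. Of 15 genes of the citric acid cycle 12, 15 and 15 rose, with medians of 0.55, 1.18 and 0.66, and of 20 genes of the respiratory chain 19, 20 and 20, with medians of 0.54, 1.18 and 0.61. Of 11 glycolysis genes 9, 11 and 10 rose, with medians of 0.90, 1.72 and 0.90, beside 0.39, 0.95 and 0.48 of the members. On deposited TPM 4, 14 and 1 citric acid cycle genes, 5, 19 and 0 respiratory chain genes and 4, 10 and 1 glycolysis genes rose, and 0 of these fell.

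With the muscle genes as a covariate 3, 2 and 0 of the 18 other beta-oxidation enzymes rose in the same order, as did 2, 2 and 0 of 15 citric acid cycle genes, 4, 5 and 0 of 20 respiratory chain genes and 3, 2 and 1 of 11 glycolysis genes. Over all genes 24.0%, 14.9% and 2.92% were called higher in that fit. Of 5 fat cell genes tested, 0, 1 and 1 rose and 1, 3 and 4 fell without that covariate. The summed level of the 10 fat cell genes was 17.3 to 121 (median 55.5) scaled TPM in wild-type mice, 18.1 to 91.7 (median 53.8) after saline and 10.8 to 42.3 (median 29.6) after ABE. *Cfd*, the most abundant of them, had 35.9 ± 20.2 in wild-type mice, 28.1 ± 19.8 after saline and 10.3 ± 6.92 after ABE (SD, n = 12), whereas *Plin4*, which muscle also expresses, had 4.53 ± 2.17 in wild-type mice, 5.08 ± 2.61 after saline and 9.40 ± 5.77 after ABE. The fat cell genes *Lep*, *Adrb3* and *Ucp1* had means of at most 0.319 in every group. Of 5 osteocyte genes tested, 5, 5 and 0 rose, with medians of 2.79, 2.43 and -0.15, and 1 fell between the treatments, where 9 of 9 members rose.

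**Figure D5:**
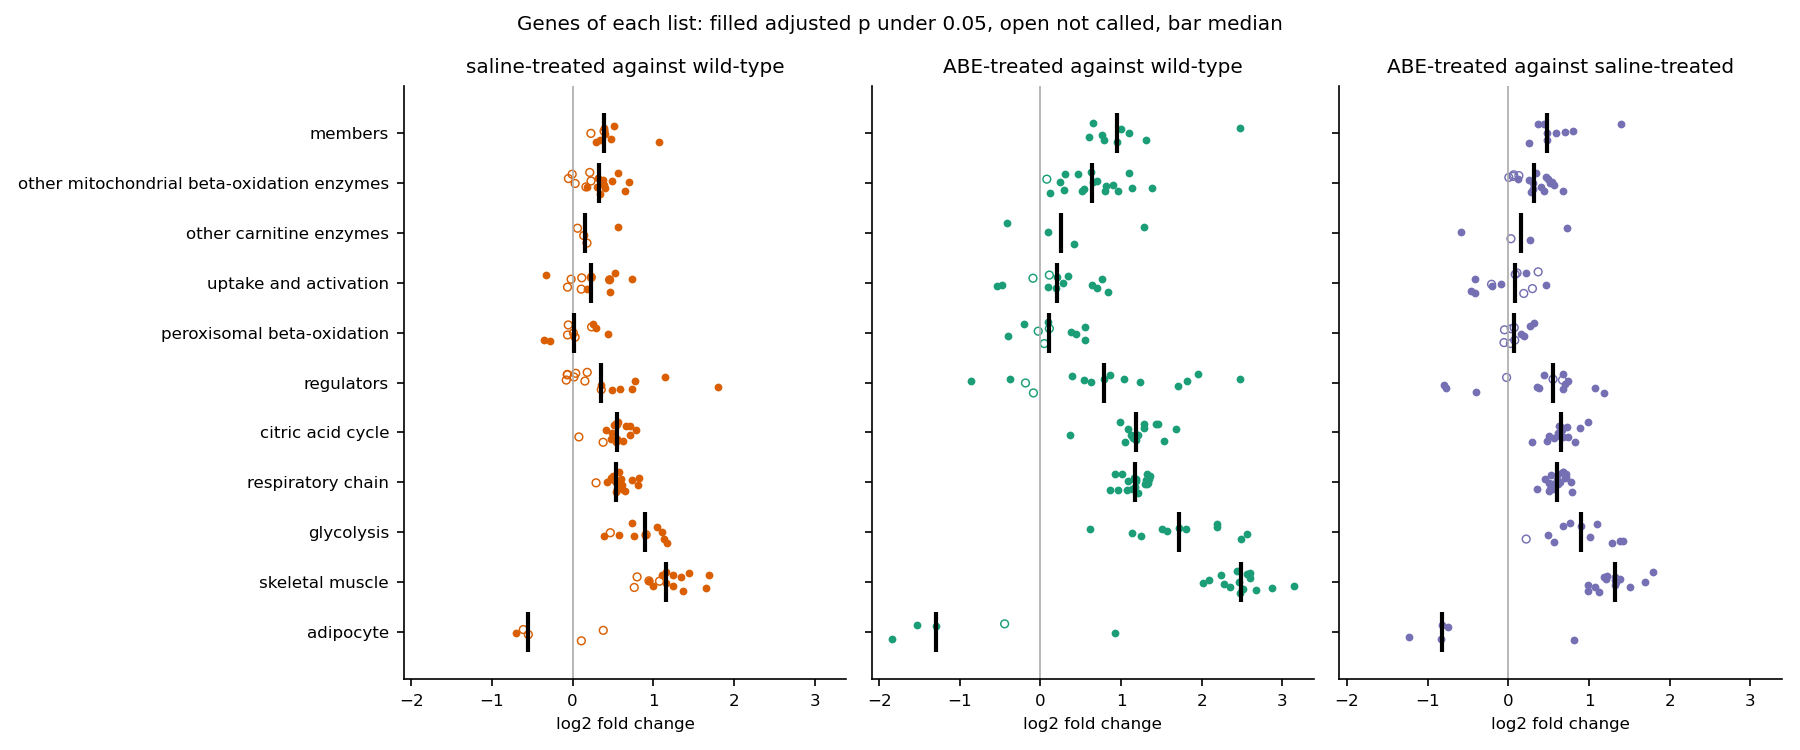
Log2 fold change of each gene tested, by list and comparison, filled where the adjusted p is under 0.05 and open where it is not, with the median of each list as a bar. In ABE-treated relative to wild-type mice the 9 members lie between 0.60 and 2.47 with a median of 0.95, beside medians of 1.18 for the respiratory chain and 2.48 for skeletal muscle.

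Members varied together from mouse to mouse. After group and sex means were removed, Pearson's r between the 36 pairs of the 9 members tested was 0.69 to 0.99 over 36 libraries, with a median of 0.93. The genes most like the mean of the members in this way were *Eci1* (r = 0.98), *Decr1* (r = 0.97) and *Hadh* (r = 0.97), which are enzymes of beta-oxidation, then the aspartate aminotransferase *Got2* (r = 0.97) and the pyruvate dehydrogenase subunit *Pdha1* (r = 0.97). *Eci1* had means of 1.99 scaled TPM in wild-type mice, 3.24 after saline and 5.08 after ABE. These r describe 36 libraries that share their depth and scaling, and carry no test.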

How the data were processed

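Poly(A) RNA of 1 tibia sample per mouse was sequenced in 36 libraries with a stranded kit, aligned by the authors to GRCm38 with STAR (2.73a per the labels) and counted on GENCODE genes with QoRTs. Whether counting used strand, and how TPM were made, is not given in the sources used here. The deposited table holds TPM, and beside them the GC fraction and length of each gene, which the authors added. Genes of at most 219 bp take 84.7% to 96.6% of the deposited TPM of a library. TPM were therefore divided by the median ratio to the geometric mean over the 23632 genes above 0 in every library, and genes were tested on log2(scaled TPM + 0.5), which understates the change of low genes. Where a symbol repeats (731 symbols), the row with the highest mean was used.

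Whole reads were recovered from TPM and gene length less 218 bp, with 100% of values whole within 0.01, and totals were 48064068 to 116206662 per library. No pair of libraries was identical. Tests used limma 3.58.1 (empirical Bayes with a trend, R 4.3.3) on all 36 libraries with sex as a covariate, over the 15902 genes that reached a mean of 0.5, with Benjamini-Hochberg adjustment and a threshold of 0.05. Ratios and correlations used two-sided permutation tests with 100000 resamples (scipy 1.17.1), exact for 6 against 6, and sex differences of ratios, added after seeing the data, an exact permutation within each sex. The fit was checked on simulated data. The labels do not give litters or extraction batches, and p-values measure the spread between these mice. The alternatives were other scalings, pseudocounts, filters, covariates, weights and sample sets, limma-voom on the recovered reads, and 2 added after seeing the data, the fast fibre genes as a covariate and ratios with no pseudocount.

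The members and lists were chosen with earlier results of these data known. Genes named are the members, the 4 of highest mean in each list described, genes in the ratios, *Etfa* and *Etfb*, genes that start within 2 kb of a member, and the 5 most like the mean of the members, and others are said to have been chosen after their values were seen. *Dmp1*, *Sost*, *Lep*, *Adrb3* and *Ucp1* were named as markers. Positions and overlaps come from GENCODE vM21, a different release from that used for counting, and promoters from RefSeq. Some genes of the peroxisomal list, counted with it, are not reported here by name. Human transgene reads were not analysed here.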

Additional observations from a re-analysis of the deposited data

Results flagged for a closer look

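*Acadl* was 10.7 scaled TPM in wild-type male replicate 2, while the other wild-type males had 7.29 to 8.47. The gap to the nearest of them was 0.649 of the range of the 6, above Dixon's critical value. It was 1 of 60 sets of 6 mice looked at (10 members, 3 groups and both sexes), and chance alone passes that value in about 1 of 20 sets.

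The difference in the log2 ratio of *Acadvl* to *Acadl* between saline-treated and wild-type mice was 0.27 in males and -0.19 in females. The difference between the sexes, 0.46, passed its own test (exact permutation of group labels within each sex, adjusted p = 0.00833 over 15 ratio differences, 6 mice a group).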

How the results depend on the processing

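Values follow the order saline-treated against wild-type, ABE-treated against wild-type and ABE-treated against saline-treated mice, where the members called were 7, 9 and 9 and the genes called 8326, 11169 and 7693. Members called were 0, 6 and 1 on deposited TPM, 3, 4 and 4 of the 4 left by a filter at 5 scaled TPM, 1 in males alone in the last comparison and 0 in females alone in the first, 1, 0 and 0 with the muscle covariate, and 1, 2 and 0 with the fast fibre covariate. With no filter they were 5, 10 and 9, where *Fabp3* (adjusted p = 0.0569), *Hadha* and, in the last comparison, *Slc25a20* (adjusted p = 0.0553) were lost. *Fabp3* was also lost in the first comparison with GC and length trends removed (adjusted p = 0.0691), and *Slc25a20* in the last with only these groups fitted (adjusted p = 0.064). Genes called were 4761 in the first comparison on deposited TPM, 13260, 19277 and 10191 with no filter and 2043, 2606 and 1775 with the filter at 5, where other numbers of genes were tested. They were 3319 and 4830 in females alone (first and last comparison) and 3267 in males alone (last), 4399 and 648 with the muscle covariate and 5225 and 1673 with the fast fibre covariate (second and last). Ratio differences past the threshold were 2 in females alone, where most others had an adjusted p of 0.0599 (exact permutation tests). With the slow fibre genes 7 of 30 relations passed, all of them in saline-treated mice. Signs turned for *Slc25a20* on deposited TPM (-0.030, last comparison), for *Acadm* (-0.090 and -0.079) and *Fabp3* (-0.082 and -0.056) in the first comparison with the muscle and the fast fibre covariate, for the sex difference of *Fabp3* in the first comparison with the latter (-0.024), for *Cpt2* to *Cpt1b* with no pseudocount in the second and last comparisons (-0.015 and -0.50) and in the last with a pseudocount of 0.1 (-0.11) and in males alone (-0.0089), and, in the first comparison in females alone, for *Acadvl* to *Acadl* (-0.19) and *Fabp3* to *Fabp4* (-0.16). The cause was not tested.

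Leaving out 1 library gave 4 to 9, 9 to 9 and 8 to 9 members, 7742 to 8864, 10960 to 11382 and 6717 to 8469 genes, 0 to 0 members with a sex difference and 11 to 12 ratio differences. In the first comparison 4 members rose without saline-treated replicate 11, which lost *Acadvl*, *Fabp3* and *Hadha*. *Hadha* was lost there without any 1 of 15 libraries and *Fabp3* without any 1 of 10 (wild-type replicates 1, 7, 8, 11 and 12 and saline-treated replicates 6, 7, 10, 11 and 12, and for *Hadha* also wild-type replicates 3, 4 and 10 and saline-treated replicates 1 and 2). *Acadm* passed without wild-type replicate 6, ABE-treated replicate 1 or saline-treated replicate 4, and *Cpt2* without these or ABE-treated replicates 3 or 9. In the last comparison *Slc25a20* was lost without any of ABE-treated replicates 1, 4 and 11 and saline-treated replicates 4 and 9. Without the 3 libraries with WT in their titles 7, 9 and 8 members rose. No paired analysis was possible because the replicate numbers follow accession order and the labels give groups no shared litter, batch or day. Depth limits *Cpt1b*, with as few as 49 reads in a library.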
